A study of Mus musculus with 8 samples.

Results

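The genes described here are 10 genes that mark Sertoli cells, the somatic cells of the seminiferous tubule, measured by RNA sequencing in spermatocyte preparations of mice with and without mitofusin 2 (MFN2). They were Sox9, Wt1, Rhox5, Amh, Inha, Inhbb, Fshr, Cldn11, Clu and Trf, taken by their gene symbol as 10 of the 54532 genes in the expression table. The study asked what the loss of MFN2, a mitochondrial outer membrane fusion protein, does to meiotic germ cells. Pachytene (P) and leptotene/zygotene (L/Z) spermatocytes were taken from the testes of C57BL/6J mice by letting cells settle in a BSA gradient, where larger cells sink faster, at postnatal day (PD) 24 and PD 52 by the sample labels, while a figure legend of the study gives a slightly different later age. The MFN2 WT libraries came from mice labelled Mfn2 loxp/loxp, and the study's methods also allow littermates with 1 floxed allele as WT. The MFN2 cKO libraries came from Mfn2 loxp/loxp; Stra8-Cre mice, in which Cre is driven in male germ cells, so the Mfn2 alleles of the Sertoli cells themselves were not the target. Each of the 8 combinations of stage, genotype and age was 1 library, without a replicate.

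Sertoli cells nurse the germ cells inside the tubule, form the blood-testis barrier and answer follicle-stimulating hormone and androgen. Immature Sertoli cells divide and secrete anti-Müllerian hormone, and around puberty they stop dividing, silence that hormone and switch on genes of the mature cell. In whole testis the 10 genes are read as markers of these cells, and spermatocyte preparations can carry RNA of the cells around them.

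The libraries held 14340665 to 20379950 reads on genes (median 16285571). Levels are in FPKM (fragments per kilobase and library size), which allows genes to be compared by level. Mfn2 itself lay at 62.2 to 97.5 FPKM in the 4 WT libraries and at 34.3 to 50.1 FPKM in the 4 cKO libraries, and its cKO level was 0.513 of WT in P at PD 24, 0.805 in P at PD 52, 0.418 in L/Z at PD 24 and 0.491 in L/Z at PD 52. These levels count the whole gene, while Cre removes a single exon, so they do not measure the deletion. The paper reported very low levels of that exon by qPCR, and low MFN2 protein, in cKO spermatocytes. Germ cell genes were set against the stage labels, where limma called 12.4% of all genes higher and 16% lower in P. Of 11 measured pachytene genes 3 (Mybl1, Piwil1 and Pou5f2) were higher in P, and of 10 leptotene and zygotene genes 3 (Dmc1, Gm960 and Rec8) were lower in P while 4 (Hormad1, Meiob, Meioc and Sycp3) were higher in P. Of 14 spermatid genes 12 were lower in P than in L/Z by limma, and their summed level in the L/Z libraries at PD 52 was 12564 FPKM in WT and 22011 FPKM in cKO.

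Together the 10 genes took 31450 reads in the P WT PD 24 library and 35377 in P cKO PD 24, against 11704 in L/Z WT PD 24 and 9106 in L/Z cKO PD 24. At PD 52 they took 24697 reads in P WT, 11825 in P cKO, 878 in L/Z WT and 2480 in L/Z cKO. The L/Z WT PD 52 library therefore stood apart, with 0.00547% of its reads on these genes, against 0.213% in P cKO PD 24, the library with the most. In summed FPKM, the cKO library was above WT in P at PD 24 (677 against 549) and in L/Z at PD 52 (61.0 against 21.2). It was below WT in L/Z at PD 24 (190 against 221) and in P at PD 52 (275 against 531). In bulk RNA, fewer cells of a type and less RNA per cell cannot be told apart.

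**Figure D1:**
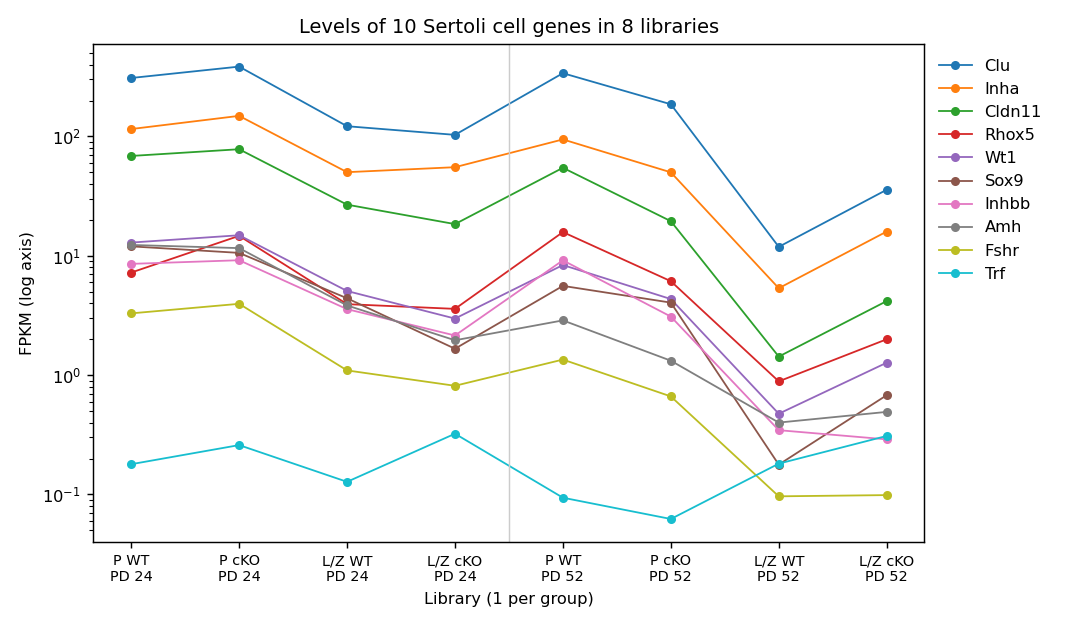
FPKM (log axis) of the 10 Sertoli cell genes in the 8 libraries, 1 point per gene and library, with lines joining the points of a gene only to guide the eye. Each P library lies above its L/Z counterpart for 9 genes, and the L/Z WT PD 52 library is the lowest for 8 of the 10, while Trf stays between 0.0623 and 0.323 FPKM.

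Within a pair of libraries, the difference in log2(FPKM + 1), cKO minus WT, was taken for each gene, with an exact 95% binomial interval that covers the counting of reads and not the spread between mice. A gene was counted as at least 2-fold higher or lower when this difference reached 1 in size and its FPKM was above 1 in one of the 2 libraries. No test was possible for a single pair. In P at PD 24, 9 of the 10 genes passed the FPKM limit, and 0 of them were at least 2-fold higher or lower, where 1.79% of all genes were higher and 6.29% lower. Their median difference was 0.19, with 7 above and 2 below 0, against -0.10 over all genes that passed. This split depends on the scaling. With reads scaled by library total and gene length, Amh went from -0.08 to 0.08 and Sox9 from -0.17 to -0.0056. At PD 52 in P, all 9 that passed lay below WT, with a median of -0.86 against -0.05 over all genes, and 3 of them (Cldn11, Inhbb and Rhox5) were at least 2-fold lower, where 5.78% of all genes were lower and 5.21% higher. In L/Z at PD 24, 8 of 9 lay below WT, with a median of -0.52 against 0.08 over all genes, and Sox9 was at least 2-fold lower, where 7.03% of all genes were lower and 3.45% higher. In L/Z at PD 52, 5 genes passed and all 5 lay above WT, with a median of 1.09 against 0.02 over all genes, and 3 of them (Clu, Inha and Cldn11) were at least 2-fold higher, where 4.83% of all genes were higher and 3.12% lower. Of these, Wt1 and Rhox5 were above 1 FPKM only in cKO, so the limit itself fixed their sign. The limit likewise fixed that of Fshr, above 1 FPKM only in WT, in P at PD 52 and in L/Z at PD 24. The genes left out in L/Z at PD 52 were Sox9 (0.51), Trf (0.15), Amh (0.09), Fshr (0.003) and Inhbb (-0.06). So the median cKO difference went down with age in P and up in L/Z. Single genes did not all turn: Sox9 and Amh lay below WT at both ages in P. In L/Z, Inha lay above WT at both ages and Inhbb below it.

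**Figure D2:**
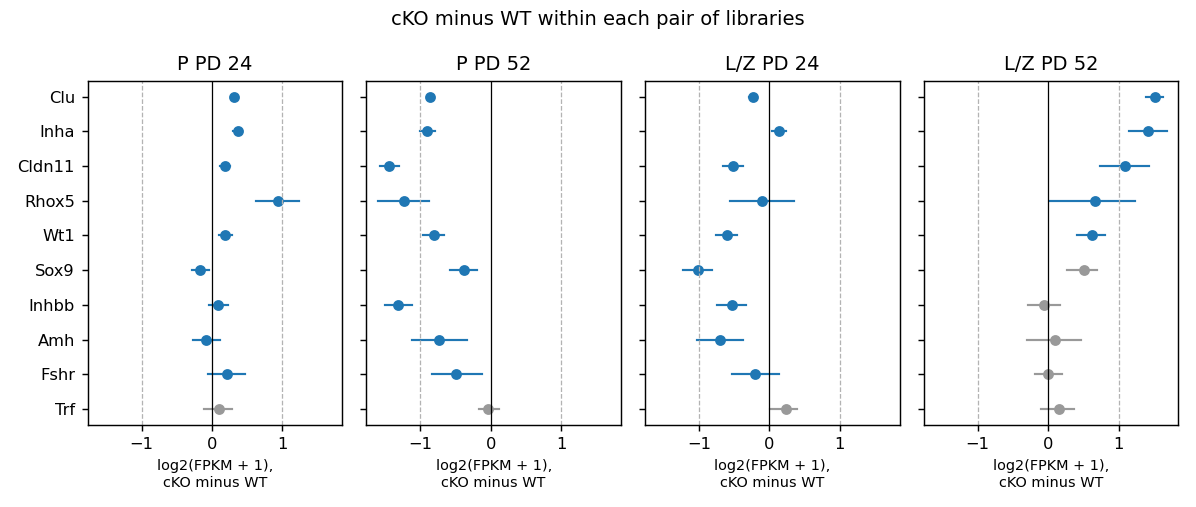
Difference in log2(FPKM + 1), cKO minus WT, of each gene (y axis) in the 4 pairs of libraries (panels), with bars for the 95% counting interval, dashed lines at a 2-fold difference and grey for genes with FPKM of at most 1 in both libraries. In P the points lie around or above 0 at PD 24 and below 0 at PD 52. In L/Z they lie mostly below 0 at PD 24 and, but for Inhbb (-0.06), at or above 0 at PD 52.

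The regulators of Sertoli cell identity come first. Sox9 (ENSMUSG00000000567, chr11:112782224-112787760, + strand, GRCm38), the transcription factor that starts Sertoli cell differentiation in the fetal gonad, was at 12 FPKM in P WT and 10.6 in P cKO at PD 24, and at 4.40 in L/Z WT and 1.66 in L/Z cKO. The PD 52 libraries had 5.59 FPKM in P WT, 4.05 in P cKO, 0.178 in L/Z WT and 0.678 in L/Z cKO. Its cKO level was thus lower in 3 pairs and higher in 1. The difference in P at PD 24 (-0.17) depends on the scaling. It was -0.0056 with reads scaled by library total and gene length. The lowest ratio of cKO to WT was 0.378 (95% counting interval 0.305 to 0.466) in L/Z at PD 24, and the ratio in L/Z at PD 52 was 3.82 (1.93 to 8.23), there on 41 and 11 reads. In both P pairs it was nearer to WT, at 0.882 (0.803 to 0.968) and 0.724 (0.613 to 0.853).

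Wt1 (ENSMUSG00000016458, chr2:105126529-105173616, + strand), a zinc finger factor that maintains Sertoli cell identity, was at 12.9 FPKM in P WT, 14.9 in P cKO, 5.07 in L/Z WT and 2.98 in L/Z cKO at PD 24. The levels at PD 52 were 8.36, 4.34, 0.475 and 1.27 FPKM in the same order. The ratio of cKO to WT was 1.15 (1.08 to 1.23) in P at PD 24, 0.519 (0.459 to 0.586) in P at PD 52, 0.587 (0.512 to 0.673) in L/Z at PD 24 and 2.68 (1.88 to 3.88) in L/Z at PD 52. All 4 intervals left out 1, with higher and lower pairs in equal number. Of the members, Wt1 had the profile over the 8 libraries nearest to the mean of the 9 genes (itself included), with a root mean square difference of 0.12 on the centred log2(FPKM + 1) scale.

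Rhox5 (ENSMUSG00000095180, chrX:37804842-37808876, + strand), a homeobox gene that androgen switches on in Sertoli cells after birth, was at 7.23 FPKM in P WT and 14.7 in P cKO at PD 24, the widest difference of a member in that pair. In L/Z at PD 24 it was at 3.93 FPKM in WT and 3.59 in cKO. In the PD 52 libraries it stood at 15.8 in P WT, 6.12 in P cKO, 0.886 in L/Z WT and 2.0 in L/Z cKO. The ratio of cKO to WT went from 2.03 (1.60 to 2.58) in P at PD 24 to 0.388 (0.289 to 0.515) in P at PD 52. In L/Z it was 0.913 (0.608 to 1.37) at PD 24, not separable from 1 at this depth, and 2.25 (1.02 to 5.33) at PD 52, on 22 and 10 reads.

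The hormone genes were read at very different depths. Amh (ENSMUSG00000035262, chr10:80805243-80807648, + strand), the anti-Müllerian hormone of immature Sertoli cells, was at 12.3 FPKM in P WT, 11.6 in P cKO, 3.83 in L/Z WT and 1.96 in L/Z cKO at PD 24. By PD 52 it was at 2.87, 1.32, 0.400 and 0.492 FPKM in the same order, so that the PD 52 library was below the PD 24 library in every combination of stage and genotype. The cKO level was lower than WT in P at PD 52 (ratio 0.459, 0.294 to 0.702) and in L/Z at PD 24 (0.511, 0.367 to 0.704). In P at PD 24 (0.941, 0.815 to 1.09) and in L/Z at PD 52 (1.23, 0.487 to 3.17, on 12 and 10 reads) it could not be told from 1.

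Inha (ENSMUSG00000032968, chr1:75507077-75510366, + strand) encodes the alpha subunit of inhibin, the Sertoli cell hormone that lowers follicle-stimulating hormone from the pituitary. It was at 115 FPKM in P WT, 149 in P cKO, 50.2 in L/Z WT and 55.2 in L/Z cKO at PD 24, and at 94.4, 50.03, 5.34 and 16.0 FPKM at PD 52. It was the only one of the 9 genes above 1 FPKM whose cKO level in L/Z at PD 24 lay above WT, with a ratio of 1.10 (1.02 to 1.19). The other ratios were 1.29 (1.23 to 1.35) in P at PD 24, 0.530 (0.492 to 0.570) in P at PD 52 and 2.98 (2.42 to 3.71) in L/Z at PD 52. Inhbb (ENSMUSG00000037035, chr1:119415465-119422248, - strand), the beta B subunit that pairs with it to make inhibin B, was at 8.55, 9.17, 3.57 and 2.15 FPKM at PD 24 and at 9.16, 3.09, 0.345 and 0.289 FPKM at PD 52, in the same order. Its cKO level was 0.338 (0.286 to 0.398) of WT in P at PD 52, the lowest ratio of the 10 genes in that pair, and 0.601 (0.493 to 0.731) in L/Z at PD 24. Unlike Inha, it did not lie higher in cKO in L/Z at PD 52 (0.838, 0.423 to 1.64, on 18 and 22 reads).

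Fshr (ENSMUSG00000032937, chr17:88985170-89200612, - strand), the receptor by which Sertoli cells bind follicle-stimulating hormone, was at 3.29 FPKM in P WT, 3.96 in P cKO, 1.09 in L/Z WT and 0.813 in L/Z cKO at PD 24. At PD 52 it was at 1.35 FPKM in P WT and 0.663 in P cKO, and both L/Z libraries held 3 reads, a count too low to set cKO against WT. The P pair at PD 52 gave a ratio of cKO to WT of 0.491 (0.275 to 0.849). The pairs at PD 24 gave 1.2 (0.949 to 1.52) in P and 0.743 (0.450 to 1.21) in L/Z, both with intervals that held 1.

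Cldn11 (ENSMUSG00000037625, chr3:31149920-31164324, + strand), the claudin that seals the blood-testis barrier, was at 68.6 FPKM in P WT, 78.1 in P cKO, 26.8 in L/Z WT and 18.4 in L/Z cKO at PD 24. Its levels at PD 52 were 54.6, 19.5, 1.43 and 4.17 FPKM. The gene spanned 54.7-fold from the lowest to the highest library. The ratio of cKO to WT was 1.14 (1.08 to 1.2) in P at PD 24, 0.357 (0.323 to 0.394) in P at PD 52, 0.687 (0.620 to 0.762) in L/Z at PD 24 and 2.92 (2.02 to 4.30) in L/Z at PD 52.

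Of the secreted proteins, Clu (ENSMUSG00000022037, chr14:65968483-65981547, + strand), clusterin, a chaperone that Sertoli cells release in quantity, had the highest level of the 10 genes in every library and took 54.2% to 67.6% of their summed FPKM. It was at 309 FPKM in P WT, 385 in P cKO, 122 in L/Z WT and 103 in L/Z cKO at PD 24, and at 339, 186, 11.9 and 35.7 FPKM at PD 52. On 611 to 24594 reads its ratios of cKO to WT had the narrowest intervals: 1.25 (1.22 to 1.27) in P at PD 24, 0.549 (0.535 to 0.563) in P at PD 52, 0.847 (0.819 to 0.875) in L/Z at PD 24 and 3.01 (2.74 to 3.30) in L/Z at PD 52. Trf (ENSMUSG00000032554, chr9:103204001-103230444, - strand), transferrin, the iron carrier, was the exception: it lay between 0.0623 and 0.323 FPKM on 3 to 19 reads, was above 1 FPKM in no library, and was higher in L/Z cKO than in L/Z WT at PD 24 (19 against 8 reads). Of its windows of 50 bases 59.4% also occur in transcripts of other genes, and no window of the other 9 genes does, so its few reads are uncertain.

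Promoter sequence was at hand for 5 of the 10 genes, and 3 of these windows, from RefSeq on GRCm38.p6, meet the start of the gene in the GENCODE annotation of GRCm38. For Fshr that start is chr17:89200675, upstream of the start in the expression table. The 3 windows are shown for this reason alone, as the sequence before the start of a barrier gene, a hormone subunit and a hormone receptor. Each run is the 250 bases before the RefSeq start on the gene's strand, at chr3:31149670-31149919 for Cldn11, chr1:119422249-119422498 for Inhbb and chr17:89200676-89200925 for Fshr, with matches to the motifs searched in capitals.
Cldn11 promoter: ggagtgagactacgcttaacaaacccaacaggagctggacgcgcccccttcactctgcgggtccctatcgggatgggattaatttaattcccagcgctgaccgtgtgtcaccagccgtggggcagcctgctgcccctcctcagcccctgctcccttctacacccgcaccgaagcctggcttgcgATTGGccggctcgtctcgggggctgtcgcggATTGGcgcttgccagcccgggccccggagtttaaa
Inhbb promoter: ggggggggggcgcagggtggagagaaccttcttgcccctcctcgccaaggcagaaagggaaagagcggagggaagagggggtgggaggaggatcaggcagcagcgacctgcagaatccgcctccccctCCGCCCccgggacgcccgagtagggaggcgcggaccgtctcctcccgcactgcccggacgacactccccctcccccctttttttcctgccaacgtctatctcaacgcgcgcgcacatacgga
Fshr promoter: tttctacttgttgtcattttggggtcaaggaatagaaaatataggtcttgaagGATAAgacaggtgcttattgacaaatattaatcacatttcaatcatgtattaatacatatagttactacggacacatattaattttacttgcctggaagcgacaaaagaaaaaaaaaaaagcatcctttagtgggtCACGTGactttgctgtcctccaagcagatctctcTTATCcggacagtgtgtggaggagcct
The letters searched on both strands were CACGTG (the E-box, present in 6.02% of all 32851 windows of this length), CCAAT (33.8%), GGGCGG (the GC box, 32.7%), TATAAA (the TATA box, 12.4%), GATAA (the GATA motif, 22.6%) and AAGGTCA (the NR5A motif, 4.08%). Cldn11 held CCAAT on the reverse strand at 66 and 35 bases before the start, and Inhbb held GGGCGG on the reverse strand at 122 bases. Fshr held CACGTG at 61 bases and GATAA at 197 bases and, on the reverse strand, at 27 bases. No motif was shared by the 3 windows, whose GC content was 63.6% in Cldn11, 68.0% in Inhbb and 36.8% in Fshr against a median of 52.4% over all windows. A match is only a description of the letters.

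Over the 4 pairs, with each pair as a block in limma, none of the 9 genes that passed the FPKM limit differed between cKO and WT, where 0.137% of all 21175 genes tested were called in either direction at an adjusted p below 0.05. The differences over 4 pairs ran from -0.46 for Inhbb (SE 0.25, adjusted p = 0.783) to 0.25 for Inha (SE 0.35, adjusted p = 0.947), with 0 members at an unadjusted p under 0.05 in limma and 0 in limma-voom on the reads. Mfn2 itself was lower by 0.87 in this fit (-0.87, SE 0.19) with an adjusted p of 0.275, which did not pass either. The average was taken over pairs of opposite sign, and for Cldn11 it was -0.17 (SE 0.38) over single differences of 0.18, -1.44, -0.52 and 1.09. The difference of the cKO effect between PD 52 and PD 24, averaged over stages, called 0 members and 0.0142% of all genes, and that between P and L/Z, averaged over ages, called 0 members and 0% of all genes. At an unadjusted p under 0.05 these 2 fits held 0 members in limma, and limma-voom held 2 for the age term and 0 for the stage term. A term for stage and age together, which is where the signs turn, was not fitted. With the age and stage terms in the same model it would leave no residual degrees of freedom on the 8 libraries.

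The comparison of P with L/Z was the one in which the members lay on one side. All 9 genes that passed were higher in P by limma with genotype and age as the block, where 12.4% of all genes were called higher in P. The log2 differences ran from 1.05 for Fshr (SE 0.18, adjusted p = 0.00787) to 2.57 for Clu (SE 0.50, adjusted p = 0.0105), with Sox9 at 1.86 (SE 0.22, adjusted p = 0.00363). The p-values measure the spread between the 4 pairs and not between mice. Without the WT PD 24 pair, or without the cKO PD 52 pair, 0 of the 9 genes and 0 of all genes were called, without the cKO PD 24 pair 7 of the 9 were, and without the WT PD 52 pair 9 of the 9. Each of the 9 had an unadjusted p under 0.05 in all 4 of these fits. In single pairs, 8 of 9 genes were at least 2-fold higher in P in WT at PD 24 (8.03% of all genes), 9 of 9 in cKO at PD 24 (8.18%), 9 of 9 in WT at PD 52 (9.9%) and 7 of 8 in cKO at PD 52 (9.41%). Rhox5 was the 1 below 2-fold in WT at PD 24 (difference 0.74) and Amh the 1 in cKO at PD 52 (0.64). At PD 52 Sox9, Amh and Inhbb passed in both genotypes only by their P level, as did Wt1, Rhox5 and Fshr in WT.

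**Figure D3:**
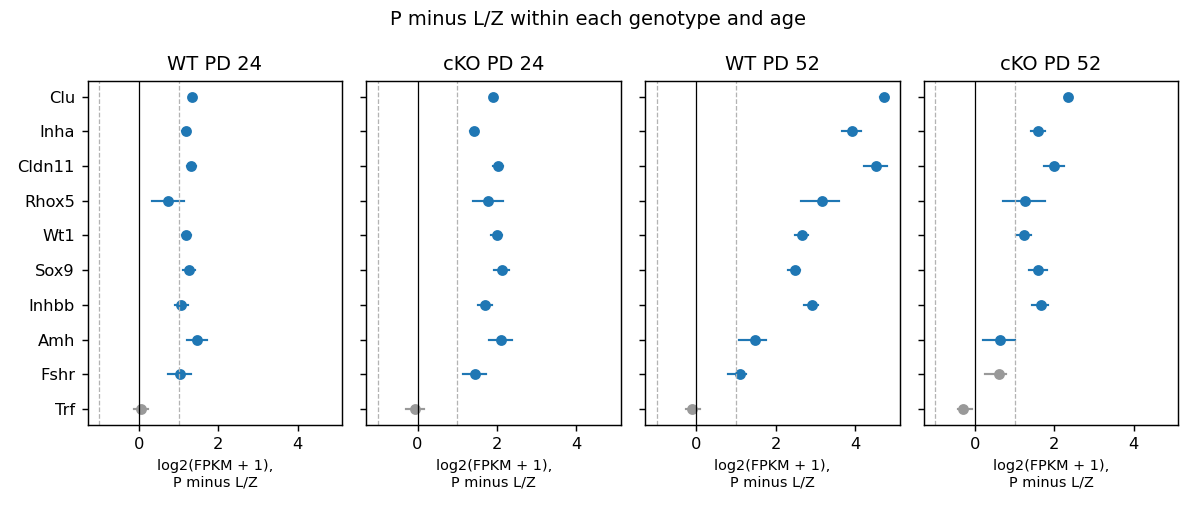
Difference in log2(FPKM + 1), P minus L/Z, of each gene (y axis) in the 4 combinations of genotype and age (panels), with bars for the 95% counting interval, dashed lines at a 2-fold difference and grey for genes with FPKM of at most 1 in both libraries. Every gene but Trf lies above 0 in each panel, and the points spread furthest, to 4.72 for Clu, in WT at PD 52.

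The size of the P over L/Z ratio was not the same in each combination. In WT at PD 24 the ratios of FPKM ran from 1.84 (1.32 to 2.59) for Rhox5 to 3.21 (2.62 to 3.97) for Amh, and in cKO at PD 24 from 2.69 (2.54 to 2.86) for Inha to 6.35 (5.25 to 7.75) for Sox9. In WT at PD 52 they ran from 7.18 (3.70 to 15.6) for Amh to 38.2 (27.9 to 53.7) for Cldn11, with Sox9 at 31.5 (17.4 to 63.6) and Clu at 28.5 (26.3 to 31.0). In cKO at PD 52 they ran from 2.69 (1.35 to 5.73) for Amh to 10.7 (6.58 to 18.4) for Inhbb. At PD 52 the ratio was larger in WT for each of the 9 genes, and at PD 24 larger in cKO for each of them. These are the same cKO differences seen from the side of the stage, and no spread between libraries of one group is known.

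With age, 6 of the 9 genes were lower at PD 52 by limma with stage and genotype as the block, where 5.41% of all genes were called lower. They were Amh (-1.75, SE 0.24, adjusted p = 0.0147), Cldn11 (-1.92, SE 0.47, adjusted p = 0.0403), Fshr (-1.03, SE 0.19, adjusted p = 0.0221), Inha (-1.64, SE 0.40, adjusted p = 0.0412), Sox9 (-1.26, SE 0.26, adjusted p = 0.0280) and Wt1 (-1.25, SE 0.27, adjusted p = 0.0301). Clu (-1.42, SE 0.50, adjusted p = 0.0961), Inhbb (-1.07, SE 0.31, adjusted p = 0.0603) and Rhox5 (-0.53, SE 0.40, adjusted p = 0.361) did not pass. Without the P cKO, the L/Z WT or the L/Z cKO libraries 0 genes of any kind were called in this fit, and without the P WT libraries 7 of the 9 were. In L/Z WT 8 of 9 genes were at least 2-fold lower at PD 52 (5.38% of all genes), in P cKO 9 of 9 (5.24%) and in L/Z cKO 4 of 8 (12.6%). In P WT the genes parted: Amh was at least 2-fold lower (5.13% of all genes lower), Rhox5 at least 2-fold higher (9.43% higher), and Clu was at 1.10 (1.08 to 1.12) of its PD 24 level.

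Set against Wt1 in the same library, a ratio that does not depend on the depth or scaling of the library, the members stood in different proportions at the 2 ages. The FPKM of Amh was 0.658 to 0.955 of that of Wt1 in the 4 libraries of PD 24. At PD 52 it was 0.344 in P WT, 0.304 in P cKO and 0.387 in L/Z cKO, with 0.843 in L/Z WT on 10 reads of Amh. The ratio was lower beyond counting error in P WT, at 0.360 (0.275 to 0.467) of its PD 24 value, and in P cKO, at 0.390 (0.259 to 0.572). Rhox5 went the other way, from 0.561 to 1.21 times Wt1 at PD 24 to 1.41 to 1.89 times at PD 52. Its ratio at PD 52 was 3.37 (2.61 to 4.36) times that of PD 24 in P WT, 2.41 (1.02 to 5.19) in L/Z WT and 1.43 (1.04 to 1.93) in P cKO, and 1.30 (0.716 to 2.31) in L/Z cKO. Amh belongs to the immature cell and Rhox5 to the cell under androgen, but a change of maturity was not tested. The other genes did not share 1 direction. In P, the ratio to Wt1 at PD 52 over that at PD 24, in WT and in cKO, was 0.633 and 0.574 for Fshr. It was 1.69 and 1.66 for Clu, 1.26 and 1.15 for Inha, and 1.65 and 1.15 for Inhbb. For Cldn11 it was 1.23 and 0.855, and for Sox9 0.720 and 1.31.

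**Figure D4:**
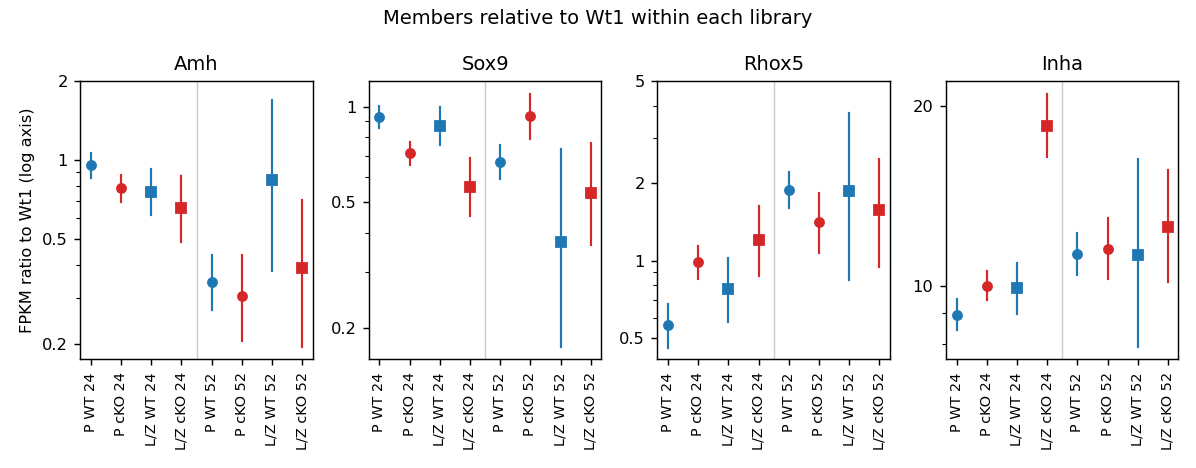
FPKM of Amh, Sox9, Rhox5 and Inha divided by that of Wt1 in the same library (log axis, its range set for each gene), in the 8 libraries (x axis, stage, genotype and age in days), with circles for P, squares for L/Z, blue for WT, red for cKO and bars for the 95% counting interval. Amh lies lower and Rhox5 higher at PD 52 in P, and Inha in L/Z cKO at PD 24 stands at 18.6 times Wt1, against 8.94 to 12.6 times in the other libraries.

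Between the genotypes, too, the proportions were not fixed. In P at PD 24, cKO had less Sox9 (0.766, 0.681 to 0.860) and Amh (0.817, 0.696 to 0.958) and more Rhox5 (1.76, 1.38 to 2.27), Inha (1.12, 1.03 to 1.22) and Clu (1.08, 1.01 to 1.16) per Wt1 than WT. In L/Z at PD 24 it had less Sox9 (0.643, 0.498 to 0.828) and more Inha (1.87, 1.60 to 2.19), Clu (1.44, 1.25 to 1.66), Rhox5 (1.55, 1.01 to 2.39) and, on 19 and 8 reads, Trf (4.31, 1.77 to 11.5) per Wt1. The P pair of PD 52 had more Sox9 (1.4, 1.13 to 1.72) in cKO and less Cldn11 (0.688, 0.588 to 0.806) and Inhbb (0.651, 0.529 to 0.80) per Wt1. In L/Z at PD 52 the interval left out 1 for Inhbb (0.313, 0.144 to 0.680) alone among the 9 genes, on 18 and 22 reads of Inhbb. The low Sox9 per Wt1 of cKO was thus seen in both pairs of PD 24, and its sign turned in P at PD 52.

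A wider set of 76 genes with a part in Sertoli cells, in 5 groups, was read in the same way, and 73 of them were above 1 FPKM in some library. Not all of them are particular to Sertoli cells. Prkaca lay at 65.0 to 79.6 FPKM in all 8 libraries, with 78.4 in L/Z WT PD 52, where the 10 members summed to 21.2. Counts and medians of this set are therefore not those of Sertoli cell RNA alone. None was called between cKO and WT over the 4 pairs by limma. Among those that passed in P at PD 52, 14 of 70 were at least 2-fold lower in cKO and 0 higher (median -0.41), against 5.78% and 5.21% of all genes, and in L/Z at PD 52 15 of 63 were at least 2-fold higher and 1 lower (median 0.35), against 4.83% and 3.12%. The earlier age gave 2 of 70 higher and 0 lower in P (median 0.19), against 1.79% and 6.29% of all genes, and 2 of 71 higher and 1 lower in L/Z (median 0.09), against 3.45% and 7.03%. The last of these differs in sign from the median of the 9 members in the same pair.

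Counts by group are read against the same shares of all genes at PD 52, 4.83% higher in L/Z and 5.78% lower in P. Secreted products, with Defb19, Cst9 and the matrix protein Sparc the highest, had 7 of 12 genes at least 2-fold higher in cKO in L/Z at PD 52, with a median of 1.2, and 5 of 14 lower in P at PD 52, with a median of -0.46. Cst9 was at 218 FPKM in P WT and 63.9 in P cKO at PD 52, and at 8.36 in L/Z WT and 20.9 in L/Z cKO. Other transcription factors, with Dmrt1, Nr0b1 and Rhox8 the highest, had 3 of 11 higher in L/Z at PD 52 and 4 of 13 lower in P at PD 52. Nr5a1 is also on the Leydig cell list. Dmrt1 is also on the list of spermatogonia genes, and its level in cKO was below WT in both pairs of PD 52, at 8.37 against 21.1 FPKM in P and 8.44 against 22.0 FPKM in L/Z. Genes of hormone and growth factor signaling, with Amhr2, Prkaca and Smad4 the highest, had 1 of 12 higher and 1 of 14 lower in those pairs, and both times it was Amhr2, the receptor for anti-Müllerian hormone, at 141 FPKM in P WT and 53.3 in P cKO and at 5.63 in L/Z WT and 15.1 in L/Z cKO. Junction genes, with Cldn3, Ctnnb1 and Tjp1 the highest, had 0 of 12 higher and 1 of 14 lower, Cldn3. The remaining group, with Aard, Cited1 and Vim the highest, had 4 of 16 higher and 3 of 15 lower, with Aard at 147 FPKM in P WT and 47.1 in P cKO at PD 52.

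Between stages, 33 of the 73 genes were higher in P and 5 lower by limma, against 12.4% and 16% of all genes. The 5 lower genes were Acvr2a, Krt18, Smad4, Tcf21 and Tgfbr3. Higher in P were the transcription factors Gata1, Gata4, Nr0b1, Nr5a1, Rhox8 and Sox8, the receptors Acvr1b and Amhr2, and the junction genes Cdh2, Espn, F11r, Gja1, Itga6, Nectin2 and Ocln. The secreted products higher in P were Cst12, Cst9, Ctsl, Defb19, Defb36, Dhh, Kitl, Serpina5 and Shbg, and the remaining group gave Aard, Cited1, Drd4, Mertk, Mro, Slc16a1, Tsx, Tubb3 and Tyro3. Examples were Rhox8 (1.87, SE 0.24, adjusted p = 0.00382), Amhr2 (2.37, SE 0.47, adjusted p = 0.0115), Shbg, the androgen-binding protein (2.24, SE 0.26, adjusted p = 0.00363), and Cst9 (2.44, SE 0.48, adjusted p = 0.0111). Between ages, 15 were lower at PD 52 and 1, the claudin Cldn3, was higher (1.77, SE 0.37, adjusted p = 0.0282), against 5.41% of all genes lower and 11.9% higher. The 15 were Aard, Drd4, F11r, Fstl3, Gata1, Hes1, Kitl, Mertk, Mro, Rhox8, Shbg, Slc2a1, Smad3, Tyro3 and Vim. Of these, Shbg (-2.12, SE 0.28, adjusted p = 0.0145) and Kitl, the ligand of the spermatogonial receptor KIT (-1.10, SE 0.20, adjusted p = 0.0200), are Sertoli cell products.

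Markers of other testis cells were read beside the members, and their part in the members' differences was not tested. All 14 Leydig cell genes were detected, and their summed level was 174 to 606 FPKM in WT and 293 to 1024 FPKM in cKO, higher in cKO in all 4 pairs. Of the 13 Leydig cell genes above the FPKM limit 5 were higher in cKO over the 4 pairs by limma, where 0.137% of all genes were called, among them Cyp17a1 (2.58, SE 0.18, adjusted p = 0.0143) and Cyp11a1 (1.93, SE 0.14, adjusted p = 0.0143), both enzymes of steroid synthesis, and Hsd3b1, Hsd3b6 and Klk1b24. Insl3, the Leydig cell hormone, was at 5.17 to 166 FPKM in WT and 37.8 to 273 FPKM in cKO, while Insl6 had the highest mean level of the list, at 121 to 241 FPKM over the 8 libraries. Insl6 did not rise in cKO in P, at 130 FPKM in WT and 121 in cKO at PD 24, and 241 and 185 at PD 52. It made up 130 of the 174 FPKM of the Leydig sum in P WT at PD 24. The sums of this list therefore partly follow Insl6, which did not move with Insl3 and Cyp17a1. The 12 macrophage genes summed to 11.7 to 67.2 FPKM in WT and 26.3 to 301 FPKM in cKO, higher in cKO in all 4 pairs, with 0 called by limma and a median of 1.26 over 4 pairs. Of the macrophage genes with the highest levels, Lyz2 was at 0.947 to 8.69 FPKM in WT and 8.17 to 62.5 FPKM in cKO, beside C1qa and Cd74. Peritubular myoid genes, led by Acta2, Actg2 and Myl9, had 8 of 9 lower in P than in L/Z, as had macrophage genes with 9 of 12, where 16% of all genes were lower in P, the opposite side from the members. Leydig cell genes lay on the members' side at PD 52. There 10 of 12 in WT and 11 of 13 in cKO were at least 2-fold higher in P (9.9% and 9.41% of all genes). At PD 24 it was 0 of 11 in WT and 0 of 13 in cKO (8.03% and 8.18%). By limma 3 of 13 were higher in P and 0 lower, where 12.4% of all genes were higher. The highest genes of the germ cell lists were Dmrt1, Stra8 and Uchl1 for spermatogonia, Meioc, Sycp1 and Sycp3 for L/Z, Adam2, Hspa2 and Ldhc for pachytene, and Prm1, Prm2 and Tnp2 for spermatids. No listed gene of these cell types was at 0 in all 8 libraries, and 1 macrophage gene was at 0 in P WT PD 52. In the pair L/Z at PD 52, where the members were higher in cKO, the macrophage sum was 6.74 times WT, the Leydig sum 1.64 times, the myoid sum 1.16 times, the spermatid sum 1.75 times and the spermatogonia sum 0.511 times, against 2.88 times for the members. Insl6 made up 183 of the 229 FPKM of the Leydig sum in L/Z WT at PD 52, and 9 of 13 Leydig genes were at least 2-fold higher in cKO in that pair (median 1.11), with Cyp17a1 at 4.47 FPKM in WT and 28.0 in cKO. In P at PD 52, where the members were at 0.518 of WT in sum, the spermatid sum was at 0.508 and the spermatogonia sum at 0.507 of WT, the Leydig sum at 1.69 and the macrophage sum at 2.25. Insl6 is part of that Leydig sum too. By gene, 8 of 13 Leydig genes were at least 2-fold higher in cKO there (median 1.61), and 3 of 9 macrophage genes (median 0.69), against 5.21% of all genes.

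**Figure D5:**
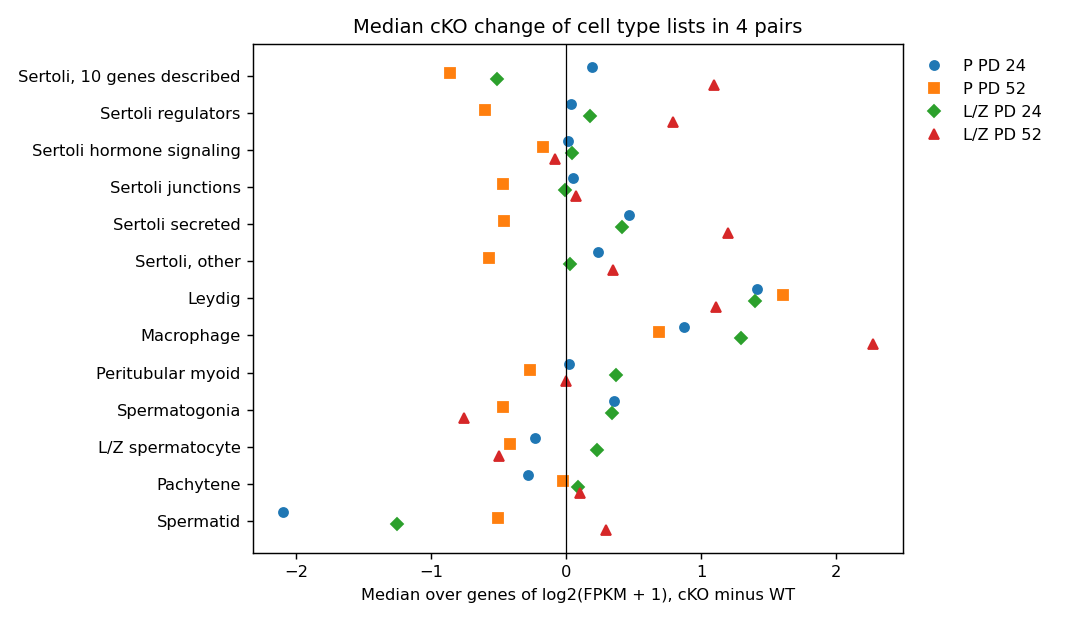
Median over the genes that passed the FPKM limit of the difference in log2(FPKM + 1), cKO minus WT (x axis), for the 10 genes described and for 12 other lists of cell type genes (y axis), with 1 symbol for each of the 4 pairs of libraries. The Leydig and macrophage medians lie above 0 in every pair, while those of the 10 Sertoli cell genes lie at 0.19 and 1.09 in P at PD 24 and L/Z at PD 52 and at -0.86 and -0.52 in P at PD 52 and L/Z at PD 24. The median of 1.09 is over the 5 genes that passed, Wt1 and Rhox5 by their cKO level alone.

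The protein-coding genes nearest to the members' mean profile over the 8 libraries, by root mean square difference of centred log2(FPKM + 1) among 14050 genes, were Rhox8 (0.13), Etnk2 (0.14), Reep1 (0.14), Mro (0.14) and 4933402E13Rik (0.15), against a median of 1.2 over all genes compared. Rhox8, a homeobox gene of the Rhox cluster, and Mro were on the lists of Sertoli cell genes read here, and the other three were not. Rhox8 was at 22.4 FPKM in the P WT PD 24 library, its highest, and all 5 had their lowest level in L/Z WT PD 52. The order of the levels of a member was read by counting error only: the 8 libraries were each separable from their neighbour in the order for Clu and Wt1, and the most ties among the 9 genes were in Fshr, with 5 of 7 neighbouring pairs not separable, followed by Inhbb and Amh with 4 each.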

How the data were processed

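The expression table that the authors deposited holds FPKM values, made from paired-end Illumina reads of libraries built with the NEBNext Ultra RNA kit, which does not mark strand, and normalized with Novomagic software per the study's methods. The submitters' processing notes name CASAVA 1.4 and Bowtie 0.12.2 with the builds mm8 and mm9, but 99.93% of the gene IDs are in GENCODE M21 (GRCm38) and 98.33% of those have the same coordinates, so the positions are given on GRCm38. Multiplied by the gene length, 100% of the values of each library were whole multiples of 1 step, within 0.01 reads, and these multiples were taken as reads per gene. From the deposited FPKM, log2(FPKM + 1) was tested with limma 3.58.1 in R 4.3.3 (eBayes with trend, Benjamini-Hochberg adjustment over all 21175 genes with FPKM above 1 in at least 1 library), with pairs of libraries as a block. limma-voom on the reads was an alternative. The fit was tested on simulated data with known changes common to all 4 pairs, so that test does not cover changes that turn sign between pairs. Reads of a pair of libraries were compared with exact binomial (Clopper-Pearson) intervals at 95%, and ratios of ratios with exact conditional intervals, both covering counting error only. With 1 library per group, no value has a replicate error. Further scripts used Python 3.11.15.

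The 10 genes, the lists and the tests were chosen with earlier results of these data known. The text names the 10 genes, the 3 genes of each Sertoli list and other cell list with the highest mean FPKM, listed genes called by limma, Mfn2 and the 5 protein-coding genes nearest in profile. Genes at or under 3 reads in both libraries of a pair were given no ratio. Alternatives were a pseudocount of 0.1, a further median-of-ratios scaling (which moved a library by at most 3.53%), no FPKM limit, protein-coding genes only, reads scaled by library total and gene length, no block and leaving out each pair. A plain ratio of FPKM, with nothing added, was chosen after seeing the data.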

Additional observations from a re-analysis of the deposited data

Results flagged for a closer look

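The cKO difference in log2(FPKM + 1) had opposite signs in 2 pairs, with both counting intervals leaving out 0, for 6 of the 10 genes. Each pair is 1 cKO and 1 WT library, so these turns of sign were not tested against the spread between mice. They were counted for the members only, so the share of all genes that turn in this way is not known. In P, the difference at PD 52 minus that at PD 24 was -1.0 for Wt1, -1.62 for Cldn11, -1.18 for Clu, -1.27 for Inha and -2.17 for Rhox5, each with cKO above WT at PD 24 and below it at PD 52. In L/Z the same quantity was 1.53 for Sox9, 1.23 for Wt1, 1.61 for Cldn11 and 1.75 for Clu, each with cKO below WT at PD 24 and above it at PD 52. Sox9 was at most at 1 FPKM in both L/Z libraries of PD 52 (0.178 in WT and 0.678 in cKO), so it did not pass the FPKM limit there.

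At one age, the difference in L/Z minus that in P was -0.80 for Wt1, -0.70 for Cldn11 and -0.55 for Clu at PD 24. At PD 52 it was 0.90 for Sox9, 1.43 for Wt1, 2.53 for Cldn11, 2.37 for Clu, 2.32 for Inha and 1.90 for Rhox5. The L/Z WT library of PD 52, which enters both the age and the stage comparison, had the lowest level of 8 of the 10 genes.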

How the results depend on the processing

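The number of the 10 genes at least 2-fold higher in cKO in P at PD 24 went from 0 to 1 (Rhox5) with a pseudocount of 0.1, with reads scaled by library total and gene length and with the plain ratio of FPKM. That in L/Z at PD 52 went from 3 to 5 with a pseudocount of 0.1 and with the plain ratio, and the number lower in P at PD 52 went from 3 to 5 with the plain ratio. No member counted as at least 2-fold different changed sign in any of these settings. Smaller differences in P at PD 24 moved with reads scaled by library total and gene length. Amh went from -0.08 to 0.08 and Sox9 from -0.17 to -0.0056. Wt1 went from 0.19 to 0.355, Cldn11 from 0.18 to 0.358, Clu from 0.32 to 0.491, Inha from 0.36 to 0.539 and Inhbb from 0.09 to 0.25. Without the FPKM limit 5 members in place of 9 were called higher in P, and 1 in place of 6 was called lower at PD 52. That last number was 4 with a pseudocount of 0.1 (adjusted p = 0.0517 for Cldn11 and 0.0574 for Sox9) and 5 with limma-voom (0.0510 for Cldn11). Leaving out a pair gave 0 to 9 members called between P and L/Z and 0 to 7 called between the ages, and the fits without a pair have 2 residual degrees of freedom. For Inha, the cKO difference over pairs ran from -0.13 to 0.64 when a pair was left out. It turned sign in the same way for Clu (-0.26 to 0.53), Cldn11 (-0.59 to 0.25), Rhox5 (-0.22 to 0.50) and Wt1 (-0.41 to 0.07). It stayed below 0 for Amh, Inhbb and Sox9. Without the block 9 members were called between stages and 7 between ages, and 0 between genotypes. Over all genes, 29 were called between cKO and WT in the fit used here, 7 with a pseudocount of 0.1, 35 with the further scaling, 111 with limma-voom, 3 without the block and 0 without the FPKM limit or without any 1 pair. The age term of the cKO difference called 3 genes, and 74, 34, 411, 1 and 0 with the pseudocount of 0.1, the further scaling, limma-voom, no block and no FPKM limit. Between ages, limma-voom called 1827 genes higher and 2233 lower, against 2523 and 1146. The cause of these shifts was not tested. The labels give no replicate numbers, so the block is the pair of libraries alike in stage and age (for the genotypes), where the study's methods name littermates as controls. Members under 20 reads in 1 or both L/Z libraries of PD 52 (Amh, Sox9, Rhox5, Fshr, Inhbb and Trf) are limited by depth.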
